A study of Homo sapiens with 9 samples.

Results

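The HOXB cluster was examined through its genes HOXB2, HOXB3, HOXB4, HOXB5, HOXB6, HOXB7, HOXB8, HOXB9 and HOXB13. Members were all probe sets (groups of short oligonucleotides that read 1 transcript) annotated to exactly 1 of these 9 symbols, which gave 17 of the 54675 probe sets of the array, or 9 of 19775 genes. The parent was SW480/EGFP, the human colorectal carcinoma line SW480 carrying EGFP. SCP51, of high metastatic potential, and SCP58, of low metastatic potential, are progenies that were each grown from a single cell of SW480/EGFP. All 3 groups were cultured cells carrying EGFP, with 3 arrays each, and total RNA was profiled. Metastatic potential had been compared after orthotopic implantation in mice. There was a single line of either class, and the differences below are differences between lines. The labels call the arrays biological replicates and do not say how the cultures were separated. The p-values therefore rest on array-to-array spread, which may be technical.

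The genes were selected on the measured signal of HOXB8, in SCP51 and the parent, and extended to its cluster. Values of that comparison are therefore given as a description with no test, and so are all values of HOXB8. For the other genes a test is given in the 2 remaining comparisons, SCP51 with SCP58 and SCP58 with the parent. These reuse the SCP51 and parent arrays, so they are not independent of the comparison that led to the choice.

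HOX genes encode transcription factors that bind DNA through a homeodomain. They lie in clusters whose gene order follows the order in which the genes are used along the body axis, from the head end (low numbers) to the tail end (high numbers). Their proteins bind DNA together with partners of the PBX and MEIS families. Several HOX genes stay active in adult intestinal epithelium, and altered HOX expression has been described in colorectal carcinoma. In the cluster the gene order is HOXB1, HOXB2, HOXB3, HOXB4, HOXB5, HOXB6, HOXB7, HOXB8, HOXB9 and, after a gap, HOXB13. It also holds microRNA genes, MIR10A between HOXB4 and HOXB5 and MIR196A1 between HOXB9 and HOXB13.

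The microRNA sequences are shown because 1 probe set of the array was annotated to the MIR10A locus and ordered the 3 groups as its neighbour HOXB4 did, and because miR-196a is known to direct cleavage of HOXB8 mRNA. They are RefSeq entries of build GRCh38.p14, written 5′ to 3′. The hairpin lies at chr17:48579838-48579947 on the minus strand, and its capitals mark the mature arms, bases 22 to 44 and 63 to 84. In the mature sequences, at chr17:48579904-48579926, chr17:48579864-48579885 and chr17:48632532-48632553, all on the minus strand, capitals mark the seed, bases 2 to 8 that pair with targets.
MIR10A hairpin: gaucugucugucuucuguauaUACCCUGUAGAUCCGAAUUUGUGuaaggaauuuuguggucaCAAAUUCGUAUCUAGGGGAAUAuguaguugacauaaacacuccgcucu
miR-10a-5p: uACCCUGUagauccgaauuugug
miR-10a-3p: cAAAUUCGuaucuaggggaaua
miR-196a-5p: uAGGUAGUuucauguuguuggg
The seed of miR-196a-5p is shared by miR-196b-5p, encoded outside this cluster. The arrays read polyadenylated RNA and not mature microRNA, so no level of a mature microRNA is given.

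Signals are the deposited intensities on a linear scale, and differences are on the log2 scale. Array medians lay between 41.1 and 44.3, which serves as a mark of dim signal. The array of SCP51 replicate 1 stood apart, with correlations of 0.891 to 0.911 with the other arrays across genes, against 0.945 to 0.979 among the other 8. Its ratio of the 3′ to the 5′ control probe set was 0.761 for GAPDH (0.894 to 0.957 on the others) and 1.08 for ACTB (0.938 to 1.16). The highest value of both ratios was that of SCP58 replicate 1. Of 10 markers of colorectal epithelium, 8 lay above the array median on all 9 arrays, among them EPCAM at 2554 to 3184. KRT20 lay below it on all 9 and CDH17 on 6 of them. Markers of other cells lay above it on all 9 arrays for 1 of 5 of fibroblasts (COL1A1, 126 to 172), 1 of 4 of leukocytes (CD3E, 71.9 to 90.8) and 1 of 3 of endothelium (VWF, 61.7 to 88.2). DCN of fibroblasts lay above it on 8 arrays (28.6 to 61.9) and PECAM1 of endothelium on 6 (36.3 to 57.2). PTPRC (19.3 to 29.0), which all leukocytes carry, and the endothelial cadherin CDH5 (4.98 to 11.9) lay under every array median. COL1A2, COL3A1, LUM, CD14 and LYZ did so too. Since each array read the RNA of many cells together, more cells with a transcript and more transcript per cell cannot be told apart.

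HOXB8, a regulator of axial patterning that can also hold myeloid progenitors in an immature state, had the widest range of the cluster. Its brighter probe set, 229667_s_at, read 533, 644 and 722 in SCP51. It read 22.7, 33.0 and 29.1 in the parent, under the median of every array. In SCP58 the signals were 316, 146 and 138. The 3 groups were fully separated, with SCP51 highest, SCP58 between and the parent lowest. SCP58 replicate 1 lay apart from its 2 companions, on the side of SCP51. The log2 difference was 4.49 ± 0.31 between SCP51 and the parent (SE of the fit, n = 3 per group), 1.76 ± 0.31 between SCP51 and SCP58 and 2.73 ± 0.31 between SCP58 and the parent. With 32 added before log2, to damp the dim parent signal, these were 3.46, 1.59 and 1.87. Without SCP58 replicate 1, and with nothing added, SCP58 stood 2.35 above the parent and SCP51 2.14 above SCP58.

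The other probe set of HOXB8, 221278_at, was dim throughout, below the median on all 9 arrays. It read 33.4, 29.7 and 36.9 in SCP51, 19.5, 22.5 and 14.0 in the parent and 23.2, 20.5 and 22.4 in SCP58. SCP51 was again above both other groups, by 0.86 ± 0.22 log2 units over the parent and 0.59 ± 0.11 over SCP58 (SE over arrays). SCP58 and the parent overlapped on this probe set.

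**Figure D1:**
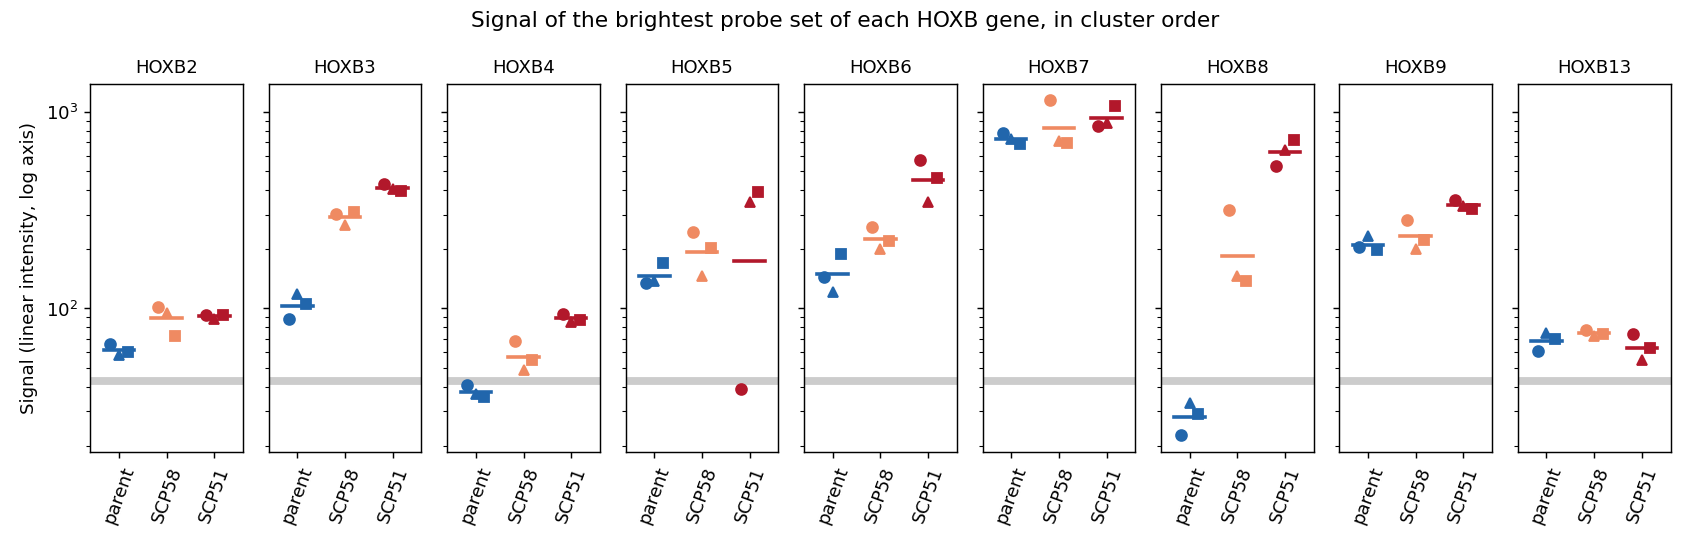
Signal (linear intensity on a log axis) of the brightest probe set of each HOXB gene in cluster order. Points are arrays (circle, triangle and square for replicates 1, 2 and 3), horizontal lines are means of log2 values and the grey band is the range of the array medians. HOXB3, HOXB4, HOXB6 and HOXB8 separate all 3 groups, and 1 SCP51 array falls to 39.0 for HOXB5.

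At the head end of the cluster, HOXB2, HOXB3 and HOXB4 were higher in SCP51 than in the parent on their brightest probe sets. HOXB2 takes part in patterning the hindbrain. It read 92.6, 88.7 and 92.1 in SCP51, 102, 94.9 and 72.6 in SCP58 and 65.7, 58.3 and 60.1 in the parent. SCP51 and SCP58 overlapped, and both lay wholly above the parent. The difference from the parent was 0.57 ± 0.14 for SCP51 and 0.54 ± 0.14 for SCP58. The latter did not pass the test (limma adjusted p = 0.294), although all 3 SCP58 arrays were higher. Between SCP51 and SCP58 the difference was 0.04 ± 0.14 (adjusted p = 0.91), and it was -0.11 without SCP58 replicate 3.

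HOXB3, which also acts in the hindbrain and in blood-forming cells, was the tested member with the widest difference between SCP58 and the parent. Its probe set 228904_at read 428, 407 and 396 in SCP51, 303, 266 and 310 in SCP58 and 88.0, 118 and 105 in the parent. The 3 groups did not overlap. HOXB3 rose in SCP58 relative to the parent by 1.51 ± 0.14 log2 units (limma adjusted p = 0.00491, range over alternatives 0.000204 to 0.274; higher in 3 of 3 arrays). The adjusted p was 0.0526 without parent replicate 1, and averaging both probe sets gave 0.77 (adjusted p = 0.274). For SCP51 the difference from the parent was 1.99 ± 0.14. SCP51 stood 0.49 ± 0.14 above SCP58, which did not pass the test (adjusted p = 0.0851).

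The other HOXB3 probe set, 208414_s_at, showed no such order. It read 33.6, 53.7 and 97.3 in SCP51, 74.3, 90.3 and 82.4 in the parent and 86.1, 79.6 and 85.8 in SCP58. The SCP51 arrays spread over a wide range that overlapped the others, and the difference from the parent was -0.55 ± 0.45 (SE over arrays). It was -0.18 without SCP51 replicate 1. With the mean of both probe sets the difference between SCP51 and SCP58 turned to -0.047.

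HOXB4, a homeobox gene known for expanding blood stem cells, gave 93.6, 85.8 and 87.9 in SCP51, 67.9, 48.4 and 54.6 in SCP58 and 40.7, 36.8 and 35.4 in the parent. The parent lay under the median of every array and the other groups above it. The groups were fully separated in the same order as for HOXB8. The difference from the parent was 1.24 ± 0.14 for SCP51 and 0.59 ± 0.14 for SCP58 (limma adjusted p = 0.255 for the latter). HOXB4 passed the filter on dim signal only through SCP51 and SCP58, so it had to differ from the parent. Nothing is therefore read from that p-value or from the separation of the parent arrays. HOXB4 was higher in SCP51 than in SCP58 by 0.66 ± 0.14 (limma adjusted p = 0.04, range over alternatives 0.0116 to 0.144; 3 of 3 arrays). It no longer passed without SCP51 replicate 2 (0.106) or 3 (0.0675), parent replicate 1 (0.0624), 2 (0.0617) or 3 (0.0752), or SCP58 replicate 2 (0.144) or 3 (0.117). The same held with no filter (0.0531), with a filter at the 65th percentile (0.0578) and with only the 6 arrays compared (0.111).

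Probe set 232979_at was annotated to MIR10A, the locus just beyond HOXB4 where the hairpin printed above lies. Which transcript it reads was not examined. The probe set was dim, above the array median on 1 array, and therefore was not tested. Its signals were 33.7, 49.6 and 43.1 in SCP51, 27.7, 23.2 and 26.5 in SCP58 and 15.4, 20.8 and 19.6 in the parent. The 3 groups were separated in the order seen for HOXB3 and HOXB4. The difference was 1.17 ± 0.21 between SCP51 and the parent, 0.69 ± 0.18 between SCP51 and SCP58 and 0.48 ± 0.15 between SCP58 and the parent (SE over arrays). With 32 added before log2 these were 0.55, 0.35 and 0.19.

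**Figure D2:**
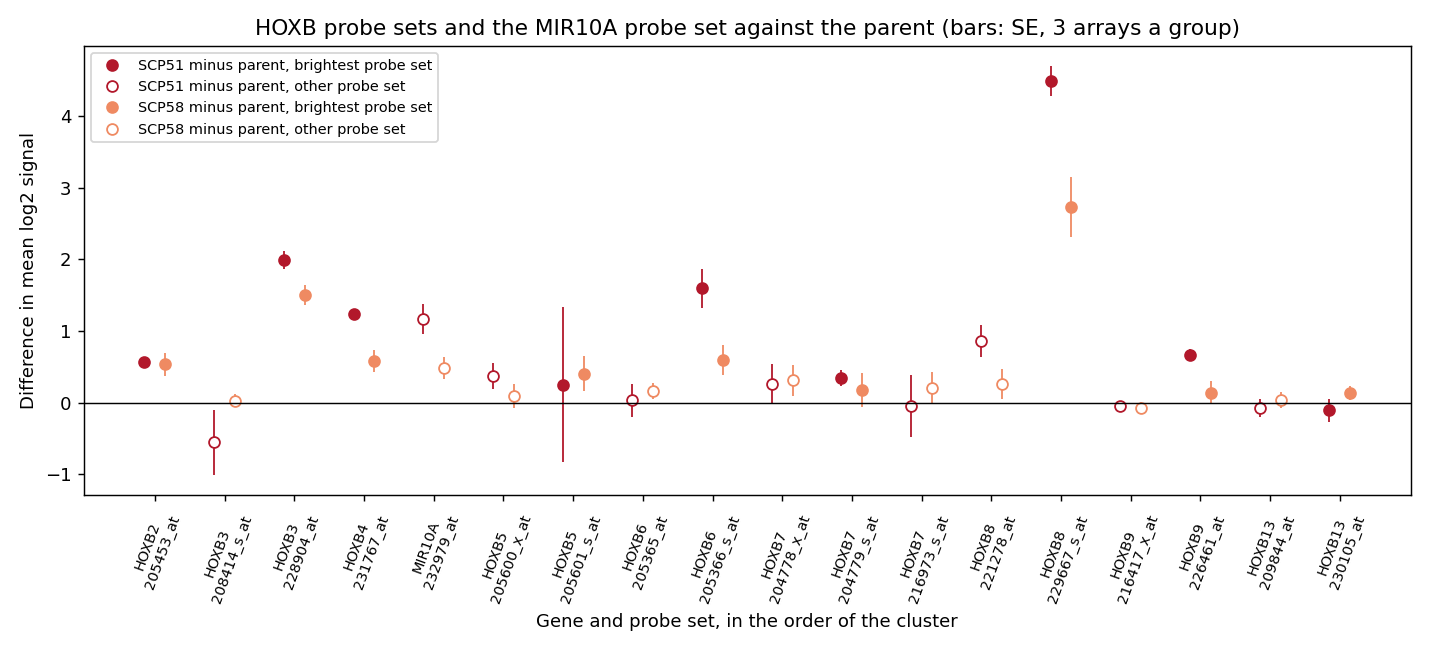
Difference in mean log2 signal from the parent for all 17 HOXB probe sets and the MIR10A probe set, in cluster order (vertical axis, log2 units; bars are SE over arrays, n = 3 per group). Filled points are the brightest probe set of a gene and open points the others, MIR10A included. Probe sets differ within a gene, most for HOXB8 (4.49 and 0.86 in SCP51), whose brighter one stands highest in both lines.

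In the middle of the cluster, HOXB6 separated the 3 groups, HOXB5 depended on 1 array and HOXB7 overlapped between SCP51 and SCP58. HOXB6, a patterning gene of the trunk, read 573, 347 and 460 in SCP51, 260, 200.3 and 221 in SCP58 and 145, 122 and 188 in the parent on probe set 205366_s_at. The groups were separated in the order SCP51, SCP58, parent. The difference from the parent was 1.59 ± 0.22 for SCP51 and 0.60 ± 0.22 for SCP58 (adjusted p = 0.489 for the latter, higher in 3 of 3 arrays).

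HOXB6 was higher in SCP51 than in SCP58 by 0.997 ± 0.22 log2 units (limma adjusted p = 0.0476, range over alternatives 0.0241 to 0.171; 3 of 3 arrays). It no longer passed without SCP51 replicate 2 (0.0513) or 3 (0.0822), parent replicate 1 (0.0819), 2 (0.0558) or 3 (0.0632), or SCP58 replicate 1 (0.0724), 2 (0.171) or 3 (0.129). No filter (0.0647), quantile normalization (0.0646) and only the 6 arrays compared (0.0978) ended it too. Its other probe set, 205365_at, read 62.3 to 98.2 in SCP51, 66.2 to 79.3 in the parent and 72.7 to 85.8 in SCP58, so all groups overlapped. With the mean of both probe sets the difference between the lines was 0.43 (adjusted p = 0.148).

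HOXB5, which takes part in the development of the enteric nervous system and of vessels, was read by a pair of probe sets. Probe set 205601_s_at read 39.0, 349 and 390 in SCP51, the first of these on SCP51 replicate 1. It read 246, 146 and 204 in SCP58 and 134, 138 and 170 in the parent. The difference of SCP51 from the parent was 0.25 ± 0.76 with that array and 1.33 without it. Between SCP51 and SCP58 it was -0.15 ± 0.76 (adjusted p = 0.928). Without SCP51 replicate 1 it turned to 0.93 and passed the test (adjusted p = 0.0326). It was 0.02 without SCP58 replicate 1 (adjusted p = 0.995). SCP58 exceeded the parent by 0.41 ± 0.76 (adjusted p = 1, overlapping arrays).

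The other HOXB5 probe set, 205600_x_at, did not drop on that array. It read 127, 138 and 183 in SCP51, 116, 102 and 124 in the parent and 148, 109 and 110.5 in SCP58. SCP51 lay wholly above the parent, by 0.37 ± 0.18 (SE over arrays), and overlapped SCP58. Of the 17 member probe sets, 3 read less than 0.5 of the mean of the other SCP51 arrays on SCP51 replicate 1. They were 205601_s_at of HOXB5 (0.106 of that mean), 216973_s_at of HOXB7 (0.412) and 208414_s_at of HOXB3 (0.445). The part of that array in these values was not tested beyond leaving it out.

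HOXB7, which has been linked to growth and invasion in several carcinomas, was read by 3 probe sets, all above the median on all 9 arrays. On 204779_s_at the signals were 852, 876 and 1069 in SCP51, 1145, 709 and 697 in SCP58 and 778, 730.4 and 686 in the parent. SCP51 lay above the parent by 0.34 ± 0.20 without overlap, while SCP58 replicate 1 exceeded every other array. Neither tested comparison passed: SCP51 minus SCP58 was 0.17 ± 0.20 (adjusted p = 0.673) and SCP58 minus the parent 0.18 ± 0.20 (adjusted p = 0.947). Without SCP58 replicate 1 the latter was -0.056 (adjusted p = 0.953). On the probe sets 204778_x_at and 216973_s_at the difference between SCP51 and the parent was 0.26 ± 0.27 and -0.05 ± 0.44 (SE over arrays), with overlapping arrays.

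At the tail end, HOXB9 was higher in SCP51 on its brighter probe set and HOXB13 overlapped between the groups. HOXB9, which specifies thoracic identity, read 354, 330.4 and 322 in SCP51, 283, 202 and 223 in SCP58 and 206, 232 and 198 in the parent on probe set 226461_at. SCP51 lay wholly above both other groups, and SCP58 overlapped the parent. The difference was 0.66 ± 0.15 between SCP51 and the parent. SCP51 exceeded SCP58 by 0.52 ± 0.15, which did not pass the test (limma adjusted p = 0.0879, range over alternatives 0.0258 to 0.265). Without SCP58 replicate 1 it was 0.66 (adjusted p = 0.0458). SCP58 minus the parent was 0.14 ± 0.15 (adjusted p = 0.934). The other HOXB9 probe set, 216417_x_at, read 160 to 194 over the 9 arrays, with differences from -0.07 to 0.03 and overlapping groups.

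HOXB13, a hindgut and prostate gene that is normally active in the distal colon, was low in all lines. On 230105_at it read 54.6 to 74.0 in SCP51, 60.5 to 74.6 in the parent and 72.2 to 77.5 in SCP58. Its other probe set, 209844_at, read 31.2 to 38.5, under every array median. The groups overlapped on both probe sets. SCP51 minus SCP58 was -0.24 ± 0.14 (adjusted p = 0.357) and SCP58 minus the parent 0.13 ± 0.14 (adjusted p = 0.932).

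Across the cluster, 15 of the 17 member probe sets and all 9 genes passed the filter on dim signal, HOXB4 and HOXB8 only through SCP51 and SCP58. In SCP51, 7 of the 9 genes had all arrays above all parent arrays, against 9.50% of all genes tested. HOXB5 and HOXB13 did not. This is the comparison that led to the choice of these genes, and nothing is read from that count. HOXB3, HOXB4, HOXB6 and HOXB8 had all SCP51 arrays above all SCP58 arrays and all SCP58 arrays above all parent arrays, an order found in 0.632% of 13598 genes tested. That order includes the comparison used for the choice, so nothing is read from this count either.

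Of the 8 genes other than HOXB8, 2 were called (limma adjusted p under 0.05) between SCP51 and SCP58, HOXB4 and HOXB6, both higher in SCP51. Of all genes, 4.08% were called in that comparison and 1.48% were called higher in SCP51. The count was 3 without SCP51 replicate 1, 2 without SCP58 replicate 1 and 0 with any other array left out. The 2 without SCP58 replicate 1 were HOXB4 and HOXB9, as HOXB6 no longer passed. The arrays of SCP51 lay wholly above those of SCP58 in 4 of the 8, HOXB3, HOXB4, HOXB6 and HOXB9, against 7.91% of all genes. The median difference of the 8 genes was 0.33, while that of all genes was -0.11. HOXB4 passed the filter only through the lines in which it is high, so it had to differ from the parent and is left out of the next counts. Between SCP58 and the parent 1 of the other 7 was called, HOXB3, against 0.140% of all genes called and 0.0662% called higher. It was 0 without parent replicate 1. The arrays of SCP58 lay wholly above those of the parent in 3 of the 7, HOXB2, HOXB3 and HOXB6, against 9.41%. Here the median of the 7 genes was 0.41, and that of all genes 0.00. All 7 lay above 0, as deposited and after either rescaling. Of all genes, 50.1% lay below 0 in this comparison as deposited. Without SCP58 replicate 1, HOXB7 fell to -0.056 and HOXB9 to 0.004.

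Elsewhere in the locus, HOXB1, the first gene of the cluster, read 35.2 to 59.3 in SCP51, 51.8 to 59.8 in the parent and 49.6 to 65.4 in SCP58 on its brighter probe set. Its differences were -0.18 ± 0.21 between SCP51 and the parent, -0.17 ± 0.21 between SCP51 and SCP58 and -0.01 ± 0.21 between SCP58 and the parent (adjusted p = 0.653, 0.678 and 1). The antisense transcripts HOXB-AS1 and HOXB-AS3 and PRAC1, a neighbour of HOXB13, had 8 probe sets, none of which passed the filter, at 10.7 to 50.3. On each of these, and on both HOXB1 probe sets, the groups overlapped in every comparison. The order seen on the equally dim MIR10A probe set was thus not shared by them.

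Among the 20 nearest tested genes outside the cluster, 10 on either side, SKAP1 was called. SKAP1, an adaptor of immune cell signalling, is the nearest tested protein-coding gene beyond HOXB1. It read 101, 106 and 112 in SCP51, 77.2, 82.6 and 86.9 in SCP58 and 64.2, 56.3 and 64.5 in the parent. The groups did not overlap. SKAP1 rose in SCP51 relative to the parent by 0.79 ± 0.10 (limma adjusted p = 0.00753, range over alternatives 0.00172 to 0.0373). It did not pass against SCP58 (0.37 ± 0.10, adjusted p = 0.0879), nor did SCP58 against the parent (0.42 ± 0.10, adjusted p = 0.286).

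On the far side of HOXB13, the nearest tested gene was CALCOCO2, an autophagy receptor, at -0.79 ± 0.40 between SCP51 and the parent with overlapping arrays (adjusted p = 0.314). With HOXB1, 1 of 21 tested genes around the cluster was called between SCP51 and the parent, against 2.96% of all genes called. Their median was -0.16, and that of all genes -0.10. Between SCP51 and SCP58, and between SCP58 and the parent, limma called 0 of 21, while 8 and 3 had an unadjusted p under 0.05, as did 21.3% and 8.60% of all genes. ATP5MC1, a subunit of the ATP synthase, and PHB1, a mitochondrial scaffold protein, were the brightest of these genes. Between SCP51 and SCP58 they stood at -0.22 ± 0.12 and -0.08 ± 0.13 (limma adjusted p = 0.349 and 0.783). Between SCP58 and the parent they stood at 0.05 ± 0.12 and -0.28 ± 0.13 (adjusted p = 1 and 0.628).

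**Figure D3:**
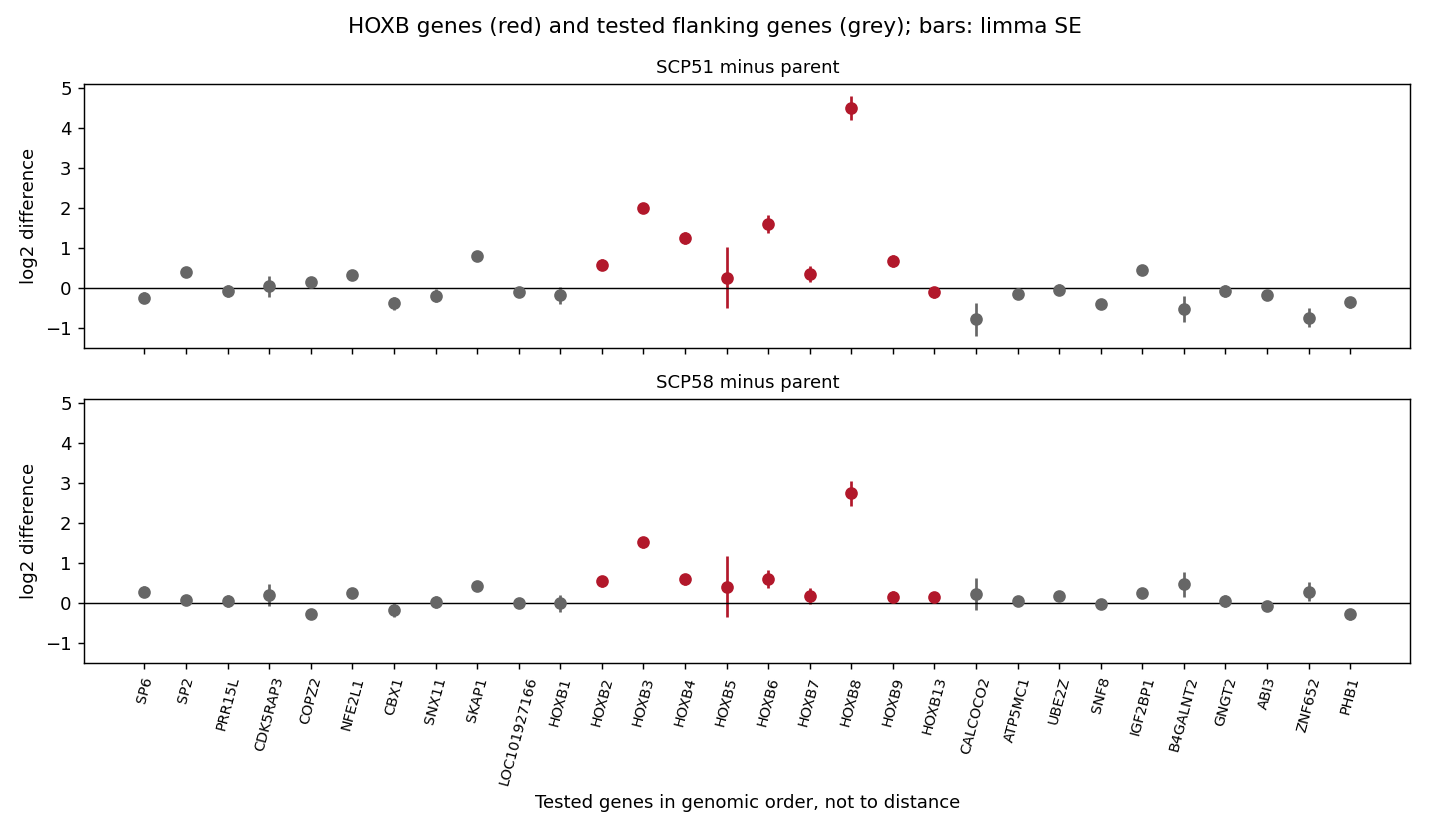
Log2 difference of SCP51 (top) and SCP58 (bottom) from the parent for the 9 HOXB genes (red) and 21 tested genes around them (grey), in genomic order and not to distance; bars are SE of the limma fit. HOXB8 reaches 4.49 and 2.73, while the flanking genes lie between -0.79 and 0.79 in SCP51 and between -0.28 and 0.46 in SCP58.

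The HOXC and HOXD genes tested mostly lay lower in SCP51, though none passed the test. Of 18 symbols of the HOXA, HOXC and HOXD clusters with a probe set of their own, 9 passed the filter, 6 of them HOXC genes and 3 HOXD genes. HOXA2 was the only HOXA symbol among the 18 and did not pass, so nothing is said here about the HOXA cluster. In SCP51 8 of the 9 lay below the parent and 8 of the 9 below SCP58, as deposited and after either rescaling. Of all genes, 64% and 65% lay below 0 in these comparisons as deposited. Their own median was -0.48 and -0.35, while that of all genes was -0.10 and -0.11. None was called by limma in any comparison, over all genes, while 4, 4 and 0 of the 9 had an unadjusted p under 0.05 (SCP51 with the parent, SCP51 with SCP58, SCP58 with the parent). Of all genes 19.6%, 21.3% and 8.60% had. With array weights 3 were called between SCP51 and the parent and 1 between SCP51 and SCP58.

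The brightest genes of that list were HOXC6 and HOXC4, both patterning genes of the neck and chest region. HOXC6 read 141, 102 and 149 in SCP51, 218, 164 and 180 in SCP58 and 220, 244 and 194 in the parent. SCP51 lay below both other groups without overlap, at -0.76 ± 0.18 against the parent (limma adjusted p = 0.0673) and -0.53 ± 0.18 against SCP58 (adjusted p = 0.141). HOXC4 read 48.9 on SCP51 replicate 1 and 121 and 187 on its companions, which overlapped the parent (137 to 190.2) and SCP58 (167 to 211). SCP51 minus the parent was -0.64 ± 0.42 for HOXC4 (adjusted p = 0.416), and SCP51 minus SCP58 was -0.88 ± 0.42 (adjusted p = 0.27). Between SCP58 and the parent HOXC6 stood at -0.23 ± 0.18 and HOXC4 at 0.24 ± 0.42 (adjusted p = 0.859 and 0.999).

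**Figure D4:**
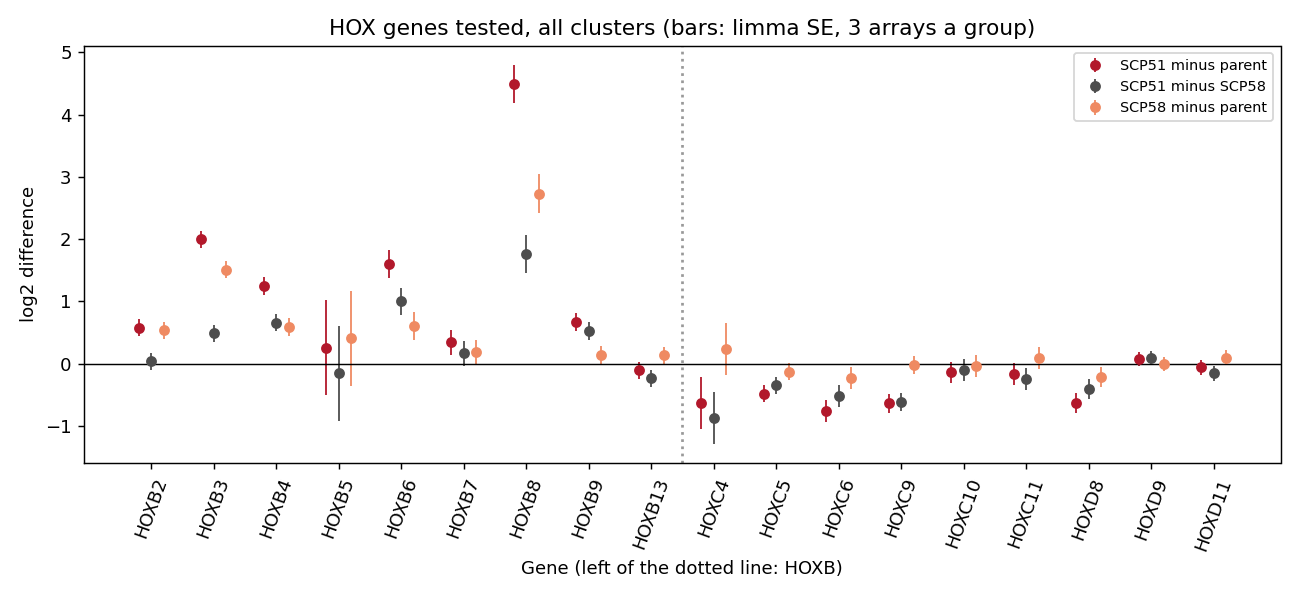
Log2 difference (vertical axis) in each of the 3 comparisons for the HOX genes tested, with HOXB to the left of the dotted line; bars are SE of the limma fit, n = 3 per group. HOXB2 to HOXB9 lie above 0 against the parent, whereas HOXC6 lies at -0.76 in SCP51 and 8 of the 9 other HOX genes lie below 0 there.

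Genes that act with HOX proteins were tested as a list of 9 TALE homeodomain partners, of which 7 passed the filter. MEIS2, a cofactor that binds DNA with HOX and PBX proteins, read 204, 220.0 and 230.4 in SCP51, 135, 129 and 158 in SCP58 and 143, 141 and 141 in the parent. SCP51 lay above both other groups, which overlapped. MEIS2 was higher in SCP51 by 0.62 ± 0.11 than in the parent (limma adjusted p = 0.0249, range over alternatives 0.00555 to 0.113) and by 0.64 ± 0.11 than in SCP58 (adjusted p = 0.0217, range 0.00576 to 0.0997).

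Against the parent, MEIS2 no longer passed without SCP51 replicate 2 (0.0874) or 3 (0.0595), or parent replicate 1 (0.0935), 2 (0.0911) or 3 (0.113). Against SCP58 the same held without SCP51 replicate 2 (0.0779) or 3 (0.0503), parent replicate 3 (0.0555), or SCP58 replicate 1 (0.0565) or 2 (0.0997). PKNOX1, a related cofactor, read 184, 175 and 185 in SCP51 and 127, 104 and 127 in SCP58, without overlap. It was higher in SCP51 by 0.61 ± 0.11 (adjusted p = 0.0244, range 0.00808 to 0.334). Averaging its 5 probe sets gave 0.27 (adjusted p = 0.334). PKNOX1 no longer passed without SCP51 replicate 2 (0.0756) or 3 (0.0537), parent replicate 3 (0.0598), or SCP58 replicate 2 (0.0987) or 3 (0.0651).

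In that list 1 of 7 genes was called between SCP51 and the parent and 2 of 7 between SCP51 and SCP58, against 2.96% and 4.08% of all genes. The medians were -0.11 and -0.08, close to those of all genes (-0.10 and -0.11). Between SCP58 and the parent limma called 0 of 7, and 0 had an unadjusted p under 0.05. MEIS2 stood there at -0.02 ± 0.11 and its relative MEIS3 at -0.08 ± 0.12 (adjusted p = 1 and 0.989).

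Among genes known to act upstream of HOX genes, none of the CDX and retinoic acid list passed the test. Of 17 CDX and retinoic acid genes, 13 passed the filter, and limma called 0 in every comparison, with 0 at an unadjusted p under 0.05 in each of the 3. CDX2, the intestinal homeobox gene that activates HOX genes in the gut, read 45.5 to 58.2 over all 9 arrays, just above the array medians. ALDH1A3, which makes retinoic acid, was the brightest, at 2510 to 4799, and stood at 0.27 ± 0.22 between SCP51 and the parent (adjusted p = 0.528), 0.14 ± 0.22 between SCP51 and SCP58 (0.753) and 0.12 ± 0.22 between SCP58 and the parent (1). CRABP2, a carrier of retinoic acid, stood at 0.05 ± 0.25, 0.49 ± 0.25 and -0.44 ± 0.25 in the same order (adjusted p = 0.926, 0.307 and 0.759).

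Polycomb and Trithorax genes encode chromatin proteins that keep HOX genes silent or active. Of 33 listed, 29 passed the filter. PCGF2, a subunit of Polycomb repressive complex 1, read 246, 279 and 287 in SCP51, 538, 465 and 539 in SCP58 and 434, 508 and 437 in the parent. SCP51 lay wholly below both other groups, which overlapped. PCGF2 fell in SCP51 against SCP58 by 0.92 ± 0.13 log2 units (limma adjusted p = 0.00891, range over alternatives 0.00518 to 0.0474; lower in 3 of 3 arrays). It was lower than in the parent, at -0.76 ± 0.13 (adjusted p = 0.0186, range 0.00845 to 0.0942).

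PCGF2 no longer passed against the parent without SCP51 replicate 2 (0.0611), parent replicate 1 (0.0651), 2 (0.0745) or 3 (0.074), or when its 4 probe sets were averaged, at -0.41 (0.0942). PCGF2 was the 1 gene of 29 called in each of the comparisons with SCP51, against 2.96% and 4.08% of all genes. The list medians were -0.18 in both, or -0.10 after quantile normalization, where the medians of all genes were -0.04 and -0.05. Between SCP58 and the parent limma called 0 of 29, and 1 had an unadjusted p under 0.05. EED, a core subunit of the complex that methylates histone H3, stood there at -0.12 ± 0.10 (adjusted p = 0.874) and the Polycomb reader CBX6 at 0.18 ± 0.07 (adjusted p = 0.513).

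The genes whose signal most resembled that of HOXB8 over the 9 arrays were looked for among 80 genes outside the cluster whose group means spanned at least 2 log2 units. Pearson's r was 0.981 for INPP4B, a phosphoinositide phosphatase, 0.980 for EFNA5, an ephrin ligand, 0.962 for AOPEP, an aminopeptidase, 0.955 for GLIS3, a zinc finger transcription factor, and 0.954 for DCLK1, a microtubule-binding kinase. The arrays form 3 groups, so r mainly follows the order of the group means. All 5 genes had all SCP51 arrays highest, SCP58 between and the parent lowest, as INPP4B shows with 254 to 294, 133 to 161 and 47.4 to 65. The 5 were picked by their r with HOXB8, so nothing is read from that shared order. Within the cluster r with HOXB8 was on the brightest probe sets 0.970 for HOXB3, 0.966 for HOXB4, 0.897 for HOXB6, 0.866 for HOXB2 and 0.861 for HOXB9. It was 0.670 for HOXB7, 0.203 for HOXB5 and -0.17 for HOXB13. The MIR10A probe set had 0.933 and the dim probe set of HOXB8 0.841. The other probe sets of HOXB3 to HOXB9 lay between -0.38 (208414_s_at of HOXB3) and 0.681 (205600_x_at of HOXB5), and that of HOXB13 at -0.24.

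**Figure D5:**
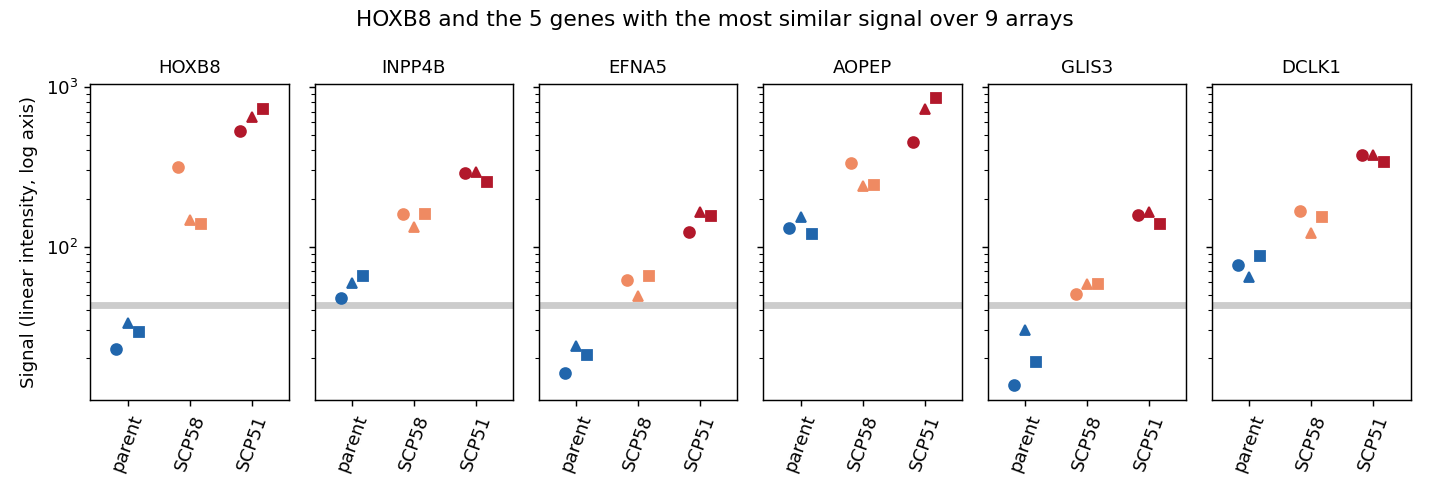
Signal (linear intensity on a log axis) of HOXB8 and of the 5 genes most like it over 9 arrays; points are arrays, with symbols for replicates 1 to 3, and the grey band is the range of the array medians. In all 6 panels the SCP51 arrays lie above the SCP58 arrays and these above the parent arrays.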

How the data were processed

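Total RNA was reverse transcribed from an oligo(dT) primer and biotin was added during in vitro transcription, as the labels' protocols state. The deposited values are linear intensities. According to the submitters' processing notes the authors used GCOS 1.4; for its scaling target and other settings, nothing is stated in the sources used here. Values below 1 (514) were set to 1 and log2 was taken, without rescaling. The 62 control probe sets were left out. Probe sets above the array median on at least 3 of 9 arrays were kept (29166), and a gene was represented by its brightest one with 1 symbol (13598 genes). Symbols were updated by Entrez identifier through RefSeq (GRCh38.p14, 99.9% matched), which also gave gene order.

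Differences were tested with limma 3.58.1 (R 4.3.3), 1 mean per group on all 9 arrays, with an intensity trend and Benjamini-Hochberg adjustment over all genes; a call is an adjusted p under 0.05. The code was tested on simulated data. With 9 arrays, their number limits the precision. The members, lists and tests were chosen with earlier results of these data known. All members were named, with up to 4 called genes of each list by p, or up to 2 of the brightest where none was called. HOXB1, CALCOCO2 and CDX2, and in the closing section RING1 and PBX3, were added after their values were seen. MIR10A was neither a member nor in a list, and was described in part because of the order of its signals. Alternatives changed the filter, normalization, offset, variance model, probe set rule, threshold, arrays and replicate block. Figures were drawn with matplotlib 3.10.9.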

Additional observations from a re-analysis of the deposited data

How the results depend on the processing

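HOXB8 kept its direction under all 19 alternatives in both comparisons of SCP51. Against the parent it was 3.46 with 32 added before log2 and 4.34 to 4.61 with each array left out, and against SCP58 it was 1.55 to 2.14 with each array left out. Neither difference moved at all with a changed filter, no trend, the replicate block or only the 6 arrays compared. The same held for an array of the third group left out, and for the mean of the probe sets, as the dim one had been filtered out. These settings say nothing of how stable the differences are. The count of HOXB genes other than HOXB8 wholly above the parent in SCP51 (6 of 8) was 5 to 7 under 15 alternatives. That count uses no fit, so the fit without a trend, array weights, the replicate block and only the 6 arrays compared cannot change it. That count was not made with each probe set tested alone. Of the 15, those leaving out an SCP58 array remove none of the arrays that it compares.

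The 2 HOXB calls between SCP51 and SCP58 became 0 with no filter, with the replicate block, with only the 6 arrays compared and at an adjusted p under 0.01. They became 1 with quantile normalization, a filter at the 65th percentile, averaged probe sets or each probe set tested alone, 4 with array weights and 0 to 3 with each array left out. The 1 call between SCP58 and the parent became 3 with array weights, 0 with the mean of the probe sets or the replicate block, and 0 to 1 with each array left out.

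For HOX genes of the other clusters, array weights gave 3 calls between SCP51 and the parent and 1 between SCP51 and SCP58, and leaving out arrays gave 0 to 2 and 0 to 1. Leaving out SCP51 replicate 1 gave 2 and leaving out SCP51 replicate 3 gave 1 in the first of these. For the flanking genes array weights gave 6, 4 and 2 calls (SCP51 with the parent, SCP51 with SCP58, SCP58 with the parent). Between SCP51 and SCP58 the count was 1 with quantile normalization, a filter at the 65th percentile, centring on the 75th percentile, 32 added before log2 or the mean of the probe sets, and 0 to 1 with each array left out. For TALE partners the count in SCP51 against the parent was 2 with array weights, 0 with the replicate block, only the 6 arrays or an adjusted p under 0.01, and 0 to 1 with each array left out. Against SCP58 it was 1 with the mean of the probe sets, 0 with the replicate block, only the 6 arrays or an adjusted p under 0.01, and 0 to 2 with each array left out. For CDX and retinoic acid genes 1 was called in SCP51 against the parent without SCP51 replicate 1, and the range with each array left out was 0 to 1. For Polycomb and Trithorax genes array weights gave 2, 2 and 3 calls, and against the parent SCP51 had 0 with the mean of the probe sets, the replicate block, only the 6 arrays or an adjusted p under 0.01, and 0 to 1 with each array left out.

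Single members turned in sign between SCP51 and SCP58: HOXB2 to -0.11 without SCP58 replicate 3, HOXB3 to -0.047 and HOXB7 to -0.047 with the mean of the probe sets, and HOXB5 to 0.89 with array weights, 0.064 with the mean of the probe sets, 0.93 without SCP51 replicate 1 and 0.017 without SCP58 replicate 1, within a range of -0.74 to 0.93 over the arrays left out. HOXB7 turned to -0.056 between SCP58 and the parent without SCP58 replicate 1, within a range of -0.056 to 0.30. Apart from the arrays left out, the cause of these changes was not tested.

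Over all genes, array weights gave 1356, 1527 and 1351 calls against 402, 555 and 19 (SCP51 with the parent, SCP51 with SCP58, SCP58 with the parent), and the replicate block 167, 210 and 6. With only the 6 arrays compared there were 184, 173 and 37, and with each probe set tested alone 498, 884 and 27. Leaving out each array gave 122 to 724, 137 to 1189 and 0 to 75. Quantile normalization turned the split between SCP51 and SCP58 from 201 higher and 354 lower to 319 and 302. Over all genes the replicate numbers did not pair the arrays, by the rule that every pair correlates above 0.1: deviations of same-numbered arrays correlated at -0.22 to 0.13 over 9 pairs, against -0.12 to 0.12 over 18 others. Dim probe sets of HOXB4, HOXB8, HOXB13 and MIR10A limit the size of differences there. Group means of HOXB2, and of the HOXC and HOXD genes tested except HOXC4 and HOXC6, reached at most 91.2 (HOXB2 in SCP51). That is about the signal of CD3E (71.9 to 90.8) and VWF (61.7 to 88.2), markers of other cells. Whether such signals reflect expression was not tested.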

Other observations

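RING1 and PBX3, genes of the lists, chosen after their values were seen, varied between arrays of the same group more than between groups. RING1, a subunit of Polycomb repressive complex 1, read 1411, 1573 and 1650 on the replicate 1 arrays of SCP51, the parent and SCP58, and 180 to 251 on the other 6 arrays. RING1 thus followed the replicate number, although over all genes the deviations of same-numbered arrays correlated at only -0.22 to 0.13. PBX3, a partner of HOX proteins, read 1671 in SCP51, 1236 in the parent and 311 in SCP58 on the replicate 1 arrays, 1542 on SCP58 replicate 3 and 27.1 to 41.7 on the remaining 5. Their SE in the fit was 1.11 and 2.07 log2 units.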
